A study of Mus musculus with 6 samples.

Results

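Long noncoding RNAs that stay in the nucleus or whose introns carry small nucleolar RNAs (snoRNAs) were followed in tumor Tregs as a group of 10 genes chosen by name: *Gas5*, *Malat1*, *Neat1*, *Snhg1*, *Snhg3*, *Snhg5*, *Snhg6*, *Snhg8*, *Snhg12* and *Kcnq1ot1*. Of these, 9 had a value among the 12153 genes analysed, and *Snhg12* had no row. RNA-Seq was performed on Tregs sorted at day 15 from B16.F10 melanoma tumors, a mouse melanoma line implanted into the recipients, in 6 libraries. The 3 control libraries came from Nr3c1-flox mice. The other 3 came from Nr3c1-flox_Foxp3-YFP/Cre mice (*Nr3c1* Foxp3-Cre), in which Cre driven by the *Foxp3* promoter acts on the floxed *Nr3c1* gene, which encodes the glucocorticoid receptor (GR). Floxed *Nr3c1* was thus shared by both groups, and the labels give the Cre and YFP allele for the *Nr3c1* Foxp3-Cre mice only. An effect of that allele cannot be told apart from that of the deletion. The paper describes a sort on Foxp3-YFP and the labels one on CD25, so a difference in sort gate cannot be told apart from genotype. Tumors from both groups were digested with Liberase TL and DNase I before sorting. Values are on the log2 scale of CPM (read counts scaled to a common library total) after quantile normalization by the authors, and the read depth of each library is unknown. The labels do not say whether each library came from a separate mouse, so p-values measure the spread between libraries.

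In these libraries no noncoding member passed the test for a difference between control and *Nr3c1* Foxp3-Cre Tregs. Among the 9 measured, 6 had a higher and 3 a lower mean in *Nr3c1* Foxp3-Cre Tregs, with log2 fold changes from -0.42 for *Snhg3* to 0.44 for *Neat1*. Limma's adjusted p was 1.0 for each of the 9, as for every other gene named here unless another value is given, and none of the 9 had an unadjusted p under 0.05. Over all 12153 genes, 7 or 0.0576% had an adjusted p under 0.05, and 396 or 3.26% had an unadjusted p under 0.05. The largest spread lay among the control libraries: *Malat1*, *Neat1*, *Kcnq1ot1* and *Snhg8* each ranged over 0.99 to 1.31 log2 units within the control group.

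The group holds RNAs with different jobs. SnoRNAs guide the chemical modification and processing of ribosomal RNA, and most are cut from the introns of host genes, so that the spliced host RNA is what remains after the snoRNA has been released. Several hosts, *Gas5* (growth arrest-specific 5) among them, begin with a pyrimidine tract like that of ribosomal protein mRNAs (a terminal oligopyrimidine, or TOP, sequence) and are degraded by nonsense-mediated decay when they are translated. *Gas5* is also known for a stem-loop that resembles a glucocorticoid response element and can bind the DNA-binding domain of GR as a decoy. *Malat1* collects in nuclear speckles beside active genes, *Neat1* is the scaffold of paraspeckles, and *Kcnq1ot1* is an unspliced antisense RNA made from the paternal allele that silences neighboring imprinted genes.

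The start sites of 4 snoRNA hosts are shown because a pyrimidine run begins within 3 bases of the annotated start. A run at the start itself is a feature known from translation genes. The RefSeq table on GRCm38.p6 held promoter windows for 8 of the 10 members, with 2 windows for *Gas5* and none for *Neat1* or *Snhg6*. A run of C followed by at least 4 more pyrimidines was searched for, with its first base within 3 bases of the annotated start. It was found for 4 members and in 11.5% of the 32851 promoter windows of the table. All 4 are snoRNA hosts, and among the members with a window only *Malat1* and *Kcnq1ot1* are not. Each window below gives 50 bases before the start and 50 from the start on, 5′ to 3′, and capitals mark the pyrimidine run.
*Gas5*, chr1:161035116-161035215, plus strand: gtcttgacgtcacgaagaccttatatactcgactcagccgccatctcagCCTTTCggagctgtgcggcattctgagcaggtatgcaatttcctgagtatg
*Snhg3*, chr4:132353637-132353736, minus strand: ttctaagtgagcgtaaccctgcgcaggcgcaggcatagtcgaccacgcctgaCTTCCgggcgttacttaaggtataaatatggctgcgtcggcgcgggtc
*Snhg8*, chr3:123508287-123508386, minus strand: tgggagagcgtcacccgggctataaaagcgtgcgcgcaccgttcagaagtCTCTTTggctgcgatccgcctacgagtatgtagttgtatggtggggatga
*Snhg12*, chr4:132308628-132308727, plus strand: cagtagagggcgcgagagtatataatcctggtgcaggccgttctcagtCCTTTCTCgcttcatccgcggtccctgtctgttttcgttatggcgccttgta
The run was 6 bases long at *Gas5* and at *Snhg8*, 5 at *Snhg3* and 8 at *Snhg12*, the host without a row. With the annotated start as position 0, the run began at 0 only for *Snhg8*. It began at -1 for *Gas5*, -2 for *Snhg12* and 2 for *Snhg3*. The other *Gas5* window and the windows of *Snhg1*, *Snhg5*, *Malat1* and *Kcnq1ot1* held no such run at this position. TATAAA or TATATA on the coding strand within 50 bases before the start was found at *Gas5*, *Snhg5*, *Snhg8* and *Snhg12*, and in 3.67% of all windows. The pyrimidine and TATA searches were set after the sequences were seen, so the shares of all windows are given as description and are no test. The palindromic glucocorticoid response element, spelled AGAACA, any 3 bases, then TGTTCT, had no match in the 300-base windows of the 8 members (250 bases before to 50 after the start), against 0.00913% of all windows. A single 6-base arm of it on either strand was found for *Snhg1* and in 18.97% of all windows.

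Transcripts were copied with an oligo-dT method, which starts from stretches of A, and this matters for RNAs that do not all end in a poly(A) tail. *Malat1* is processed at its end by RNase P and long *Neat1* ends in the same manner. The longest run of A is shown for *Malat1*, the most abundant member, and for *Kcnq1ot1*, the longest, with 15 bases on either side and the run in capitals.
*Malat1*, bases 6674 to 6685 of 6983: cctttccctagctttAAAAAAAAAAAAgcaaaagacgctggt
*Kcnq1ot1*, bases 69565 to 69605 of 93092: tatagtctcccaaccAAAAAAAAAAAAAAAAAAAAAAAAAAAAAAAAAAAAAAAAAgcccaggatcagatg
*Malat1* held 1 run of at least 10 A and *Kcnq1ot1* held 10 such runs, the longest of 41 bases. The longest run in the 20771-base *Neat1* transcript was 7. The longest run was between 4 and 7 bases in the longest transcripts of *Gas5*, *Snhg1*, *Snhg3*, *Snhg5*, *Snhg6* and *Snhg8*, and 12 in *Snhg12*. How far these runs set the measured levels was not tested.

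Positions are given on mm10 from GENCODE M21, as in the processing by the authors. *Malat1* lies at chr19:5795690-5802672 on the minus strand, and *Neat1* lies next to it at chr19:5824708-5845478 on the same strand, with isoforms from 711 to 20771 bases. *Kcnq1ot1* covers chr7:143203458-143296549 on the minus strand as 1 unspliced exon of 93092 bases inside *Kcnq1*, to which it is antisense. *Kcnq1* itself had no row. *Gas5* at chr1:161034422-161038539 has 25 annotated transcripts and 9 snoRNA loci within its span. *Snhg1* at chr19:8723475-8726443 has 8 such loci, *Snhg12* at chr4:132308623-132311024 has 4, *Snhg3* at chr4:132348014-132353686 and *Snhg5* at chr9:88521050-88522929 have 2 each, and *Snhg6* at chr1:9941959-9944118 and *Snhg8* at chr3:123507552-123508404 have 1 each. None of the 1507 annotated snoRNA genes had a row, so the values describe the host RNAs and not the snoRNAs cut from them.

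Other measured genes share the position of *Snhg3*, *Malat1* and *Gas5*. 5592 bases of the span of *Snhg3* lie inside *Rcc1*, a guanine nucleotide exchange factor gene on the same strand, so reads can be split between the 2 genes and the *Snhg3* value is uncertain. *Gm37376*, of 453 bases at chr19:5801941-5802393, is annotated antisense within *Malat1*, and no strand-specific counting is stated, so its reads and those of *Malat1* cannot be told apart. *Zbtb37* overlaps the first 428 bases of *Gas5* on the opposite strand, and *Slc3a2* starts just before *Snhg1*, in the opposite direction and without overlap.

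To compare levels between members, CPM was divided by transcript length and given as log2 CPM per kb of the longest annotated transcript. On this scale *Malat1* was highest at 5.13 ± 0.49 (SD over 6 libraries) and *Gas5* followed at 4.38 ± 0.20. The ranges of these 2 over the 6 libraries overlapped. The longest *Gas5* transcript, of 2556 bases, is a retained-intron form, and the forms annotated as lincRNA have 346 to 665 bases. A shorter length would raise the *Gas5* level, so the order of these 2 depends on the form chosen. *Snhg5* came next at 3.47 ± 0.26, below every *Gas5* value and above every value of the members after it. *Snhg3* at 2.55 ± 0.30 and *Snhg6* at 2.27 ± 0.20 overlapped, as did *Snhg8* at 1.21 ± 0.46 and *Snhg1* at 0.997 ± 0.32. *Neat1* was at -0.67 ± 0.47 and *Kcnq1ot1* lowest at -4.34 ± 0.41, each apart from its neighbors in the order. With the mean in place of the longest transcript length, *Neat1* at 1.03 ± 0.47 overlapped *Snhg8* at 1.62 ± 0.46. Before the correction for length, *Kcnq1ot1* was at a log2 CPM close to that of *Snhg1*, and its place at the end comes from its length.

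**Figure D1:**
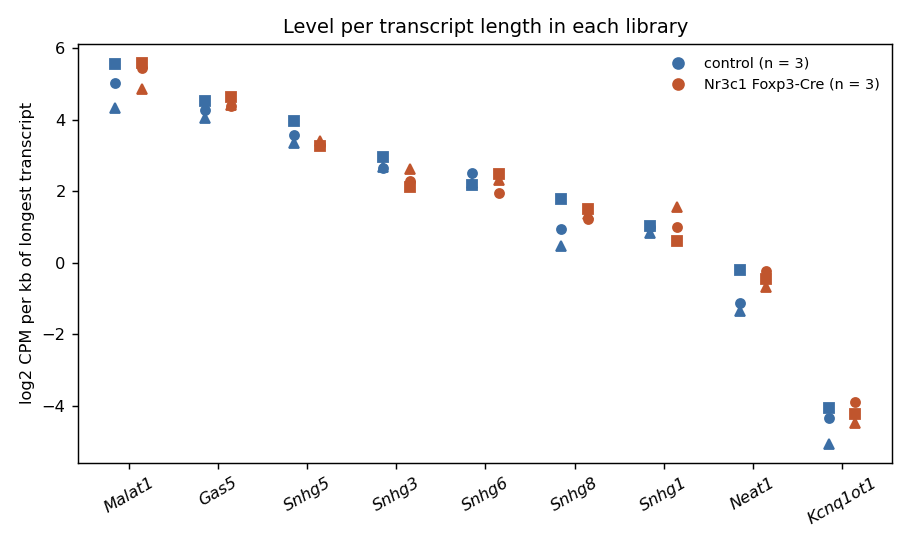
Level of each member as log2 CPM per kb of its longest annotated transcript (vertical axis) in 3 control (blue) and 3 *Nr3c1* Foxp3-Cre (orange) libraries, with circle, square and triangle for replicates 1, 2 and 3. *Malat1* and *Gas5* lead with overlapping values, and *Kcnq1ot1* lies lowest, at -5.06 to -3.88.

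*Malat1*, the most abundant member, was at 7.82, 8.35 and 7.12 log2 CPM in control replicates 1, 2 and 3 and at 8.25, 8.39 and 7.67 in the *Nr3c1* Foxp3-Cre replicates. The values of the groups interleaved, with the lowest value in control replicate 3 and control replicate 2 close to the top of the other group. The log2 fold change was 0.34 (standard error, SE, 0.29, 95% interval -0.30 to 0.98), and the exact two-sided permutation p was 0.6, where 0.1 is the smallest that 3 libraries against 3 allow. The value moved with libraries of both groups. Without control replicate 3 it was 0.02, and without control replicate 2 it was 0.63 (limma unadjusted p = 0.026, adjusted p = 0.806). Leaving out *Nr3c1* Foxp3-Cre replicate 2 gave 0.196, while leaving out replicate 3 of that group gave 0.55. *Malat1* varied more than most genes of its level, with a pooled SD of 0.51 against a median of 0.13 among the 740 genes within 0.5 log2 units of it, and 98.5% of those genes had a smaller SD. *Malat1* made up 63.8% to 75.5% of the summed CPM of the 9 members in each library.

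*Gm37376*, antisense to *Malat1*, was at 7.07, 7.45 and 6.47 log2 CPM in the control libraries and at 7.71, 7.79 and 7.14 in the *Nr3c1* Foxp3-Cre libraries. Its profile followed that of *Malat1*, with the same control library lowest, and its log2 fold change was 0.55 (SE 0.25, limma unadjusted p = 0.051). It lies within *Malat1* and its reads cannot be told apart from those of *Malat1*, so this likeness is no separate observation.

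*Neat1*, the paraspeckle scaffold, was at 3.25, 4.17 and 3.03 log2 CPM in control Tregs and at 4.16, 3.92 and 3.70 in *Nr3c1* Foxp3-Cre Tregs. All 3 *Nr3c1* Foxp3-Cre libraries lay above control replicates 1 and 3, and control replicate 2 was the highest of the 6. Its log2 fold change of 0.44 was the largest of the 9 members (SE 0.30, 95% interval -0.24 to 1.12, exact two-sided permutation p = 0.4). Without control replicate 2 it was 0.78 (limma unadjusted p = 0.010, adjusted p = 0.702), and without control replicate 3 it was 0.22. Within each library *Malat1* exceeded *Neat1* by 3.97 to 4.57 in log2 CPM, a difference not corrected for length, with means of 4.28 ± 0.25 (SD, n = 3) in control and 4.18 ± 0.26 (SD, n = 3) in *Nr3c1* Foxp3-Cre libraries (exact two-sided permutation p = 0.5). The difference between these neighboring RNAs therefore varied less over the 6 libraries than either level did.

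*Kcnq1ot1* was at 2.19, 2.47 and 1.48 log2 CPM in control Tregs and at 2.66, 2.31 and 2.07 in *Nr3c1* Foxp3-Cre Tregs. Control replicate 3 was again lowest, and the remaining values of the groups overlapped. A log2 fold change of 0.30 was found for it (SE 0.34, exact two-sided permutation p = 0.5), and it was 0.01 without control replicate 3 and 0.51 without control replicate 2. It was 0.14 when *Nr3c1* Foxp3-Cre replicate 1 was left out. Of 14 listed genes of its imprinted domain, 8 had a row, 3 higher and 5 lower, with a median log2 fold change of -0.05 and none with an unadjusted p under 0.05. *Cd81*, a tetraspanin gene of that domain and its most abundant member, had a log2 fold change of -0.12 (SE 0.13).

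**Figure D2:**
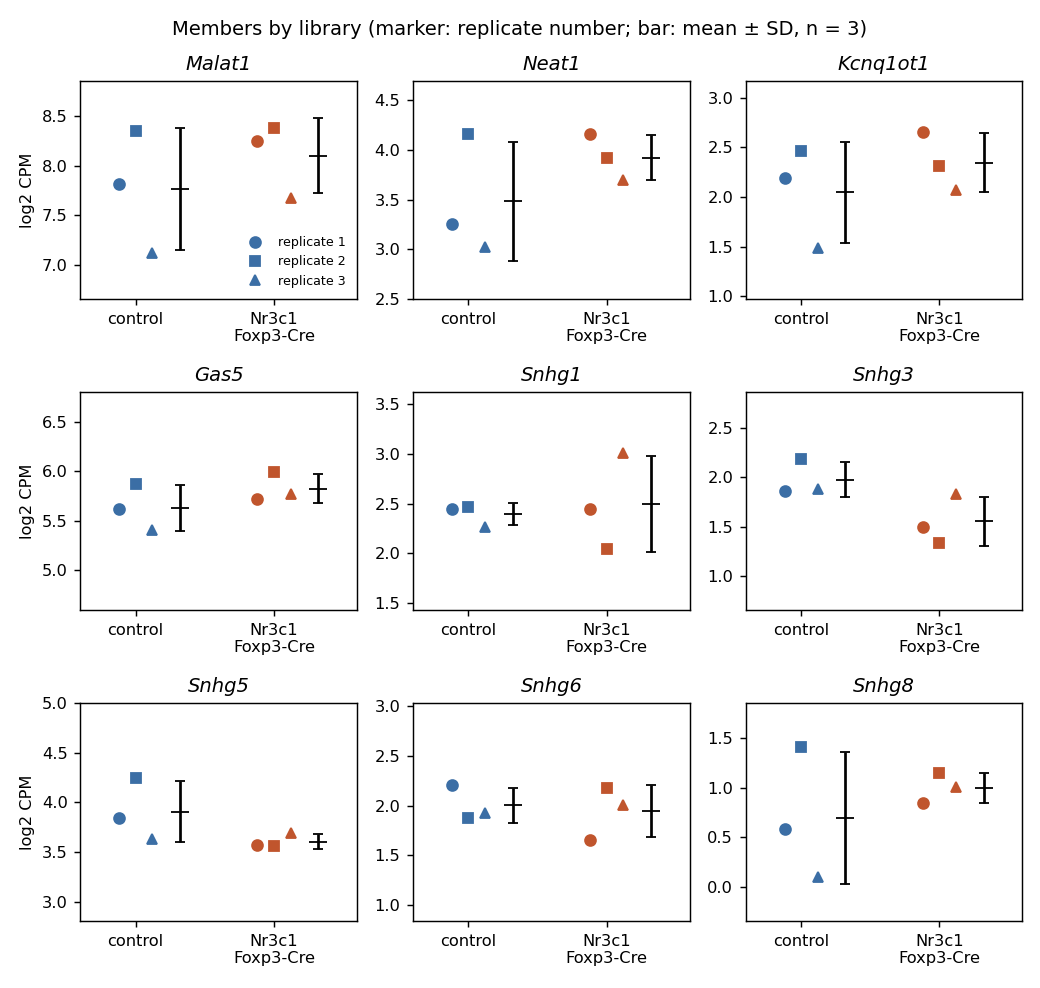
Log2 CPM (vertical axis, every panel spanning the same number of log2 units) of each member in 3 control (blue) and 3 *Nr3c1* Foxp3-Cre (orange) libraries, with circle, square and triangle for replicates 1, 2 and 3 and black bars for the mean ± SD. *Snhg3* is the only panel without overlap between the groups, and control replicate 3 is the lowest point for *Malat1*, *Neat1*, *Kcnq1ot1*, *Gas5* and *Snhg8*.

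*Gas5*, the snoRNA host that can bind GR, was at 5.62, 5.87 and 5.41 log2 CPM in control Tregs and at 5.72, 5.99 and 5.77 in *Nr3c1* Foxp3-Cre Tregs. Control replicate 2 lay within the *Nr3c1* Foxp3-Cre values and the other controls lay below them. The mean was 5.63 ± 0.23 (SD, n = 3) in control and 5.83 ± 0.14 (SD, n = 3) in *Nr3c1* Foxp3-Cre libraries, a fold of 1.14 with a 95% interval of 0.909 to 1.44. The log2 fold change of 0.19 (SE 0.15) had a limma adjusted p of 1.0 and an exact two-sided permutation p of 0.3. It was 0.08 without control replicate 3 and 0.31 without control replicate 2. Leaving out *Nr3c1* Foxp3-Cre replicate 2 gave 0.11. The interval included a fold of 1 and lay below 2.

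The GR gene itself moved in the direction of the genotype. *Nr3c1* was at 7.15, 7.59 and 6.88 log2 CPM in control libraries and 6.14, 5.45 and 5.90 in *Nr3c1* Foxp3-Cre libraries, with no overlap (log2 fold change -1.38, SE 0.21, limma adjusted p = 0.120). This value covers the whole gene and not the floxed part alone. *Tsc22d3*, a GR target gene, was lower as well (log2 fold change -1.56, SE 0.16, limma adjusted p = 0.0342), and *Dusp1*, a phosphatase gene induced by GR and the most abundant of 5 listed glucocorticoid control genes, all 5 of which had a lower mean, had a log2 fold change of -0.56 (SE 0.13, limma adjusted p = 0.652). The difference between *Gas5* and *Nr3c1* in log2 CPM within a library, not corrected for length, was -1.58 ± 0.13 (SD, n = 3) in control and -0.0031 ± 0.49 (SD, n = 3) in *Nr3c1* Foxp3-Cre libraries. Since *Nr3c1* is the gene targeted in this genotype, the direction of this shift was set by the design, and it is given as a description with no test. In the 25 annotated *Gas5* transcripts the palindrome had no match, and a single arm of it was found in 5, all 5 of them among the 20 retained-intron forms and none among the 5 forms annotated as lincRNA, of 346 to 665 bases. This search was for the exact DNA spelling and cannot find an RNA stem-loop that only resembles it. It therefore does not bear on whether these forms can bind GR.

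*Snhg3*, the host of the H/ACA snoRNAs *Snora73a* and *Snora73b*, was the member whose groups did not overlap. Its values were 1.86, 2.18 and 1.88 log2 CPM in control Tregs and 1.499, 1.34 and 1.83 in *Nr3c1* Foxp3-Cre Tregs, and the gap between the groups was narrow, from 1.83 to 1.86. The fitted log2 fold change was -0.42 (SE 0.31, 95% interval -1.11 to 0.27, exact two-sided permutation p = 0.1). Without overlap were 1 of 9 members and 901 or 7.41% of all genes, so the count of members was near the background. *Rcc1*, which shares the position of *Snhg3*, was at 6.01 to 6.51 log2 CPM in all libraries with a log2 fold change of -0.06 (SE 0.14).

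*Snhg5*, the host of *Snord50a* and *Snord50b*, was at 3.85, 4.24 and 3.63 log2 CPM in control Tregs and at 3.57, 3.56 and 3.69 in *Nr3c1* Foxp3-Cre Tregs. Control replicate 3 lay within the other group, whose values were close together. The groups differed by a log2 fold change of -0.30 (SE 0.21, exact two-sided permutation p = 0.2), and it was -0.13 without control replicate 2 and -0.44 without control replicate 3.

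*Snhg1*, with 8 snoRNA loci, was at 2.45, 2.47 and 2.27 log2 CPM in control Tregs and spread more widely, at 2.44, 2.04 and 3.01, in *Nr3c1* Foxp3-Cre Tregs. The log2 fold change was 0.10 (SE 0.31), and it was -0.15 without *Nr3c1* Foxp3-Cre replicate 3, 0.33 without *Nr3c1* Foxp3-Cre replicate 2 and 0.04 without control replicate 3. The groups of *Snhg6*, the host of *Snord87*, overlapped, with 2.21, 1.88 and 1.93 log2 CPM in control Tregs and 1.66, 2.18 and 2.01 in *Nr3c1* Foxp3-Cre Tregs. On the log2 scale the fitted difference was -0.06 (SE 0.30), and it ranged from -0.17 to 0.09 with each of the 6 libraries left out in turn. *Snhg8*, the host of *Snora24* and the least abundant member with a row, was at 0.58, 1.41 and 0.09 log2 CPM in control Tregs and at 0.84, 1.14 and 1.01 in *Nr3c1* Foxp3-Cre Tregs. The control values lay on both sides of the other group, and the log2 fold change was 0.30 (SE 0.43), with 0.0044 without control replicate 3 and 0.66 without control replicate 2.

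The members shared an order among the control libraries. Control replicate 2 was the highest and control replicate 3 the lowest control for 7 of 9 members, all but *Snhg3* and *Snhg6*. The same order held for 79 or 23.2% of the 341 rows annotated as long noncoding RNA and for 1579 or 13.0% of all rows. This pattern was noticed in the data and was not tested. RNA of other cells and of mitochondria also differed between libraries. The melanoma markers took 0.97%, 0.361% and 0.728% of CPM in control replicates 1, 2 and 3 and 0.654%, 1.01% and 0.398% in the *Nr3c1* Foxp3-Cre replicates, and mitochondrially encoded genes took 0.212% to 0.318% in control and 0.201% to 0.307% in *Nr3c1* Foxp3-Cre libraries. Control replicate 2, high for most members, was the lowest for melanoma markers and the highest for mitochondrially encoded genes. *Nr3c1* Foxp3-Cre replicate 2 had the highest melanoma share of the 6 libraries and also the highest *Malat1* and *Gas5*. A link between these shares and the members was not tested. The fits with marker means that follow were chosen after the data were seen and are no test of it. When the mean of the melanoma markers was added to the fit, *Malat1*, *Neat1* and *Gas5* had log2 fold changes of 0.33, 0.41 and 0.19, and with the mitochondrial mean these were 0.28, 0.39 and 0.18.

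**Figure D3:**
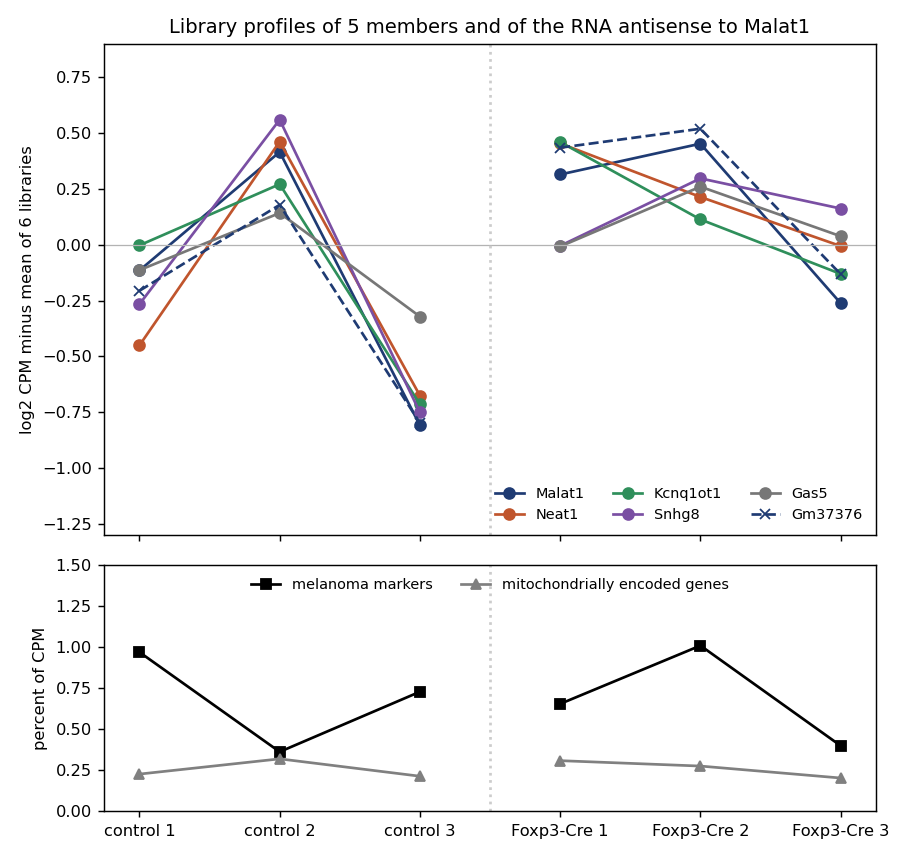
Upper panel, log2 CPM minus the mean over the 6 libraries for 5 members and *Gm37376*, and lower panel, percent of CPM taken by melanoma markers and mitochondrially encoded genes, for each library on the horizontal axis (lines within a group only guide the eye). All 6 RNAs are lowest in control replicate 3, where the melanoma markers are at 0.728%, and *Gm37376* can share reads with *Malat1*.

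Markers of Tregs and of other cell types were then summed in each library. All 8 Treg markers had a row, with summed values of 2942 to 4224 CPM in control and 3020 to 3725 CPM in *Nr3c1* Foxp3-Cre libraries. All 9 melanoma markers had a row, led by *Dct*, a melanin synthesis enzyme gene, at 10.61 to 12.22 log2 CPM. Macrophage markers, 10 of 10 with a row and all 10 with a lower mean in *Nr3c1* Foxp3-Cre libraries, summed to 493.8 to 838.1 CPM in control and 426.8 to 855.0 CPM in *Nr3c1* Foxp3-Cre libraries. Summed values of the 5 fibroblast markers did not overlap between the groups, at 186.7 to 460.0 CPM in control and 77.55 to 167.1 CPM in *Nr3c1* Foxp3-Cre libraries, with collagen genes *Col1a1* and *Col1a2* at log2 fold changes of -1.87 and -1.69 (limma adjusted p = 0.120 and 0.271), without overlap. Of the B cell, CD8 T and NK cell, and dendritic cell markers, 1 of 5, 2 of 5 and 3 of 5 had a row, and *Ms4a1*, *Cd8a*, *Ncr1* and *Itgax* had none. Summed CPM in control and in *Nr3c1* Foxp3-Cre libraries was 14.08 to 23.37 and 15.07 to 21.26 for the B cell markers, 10.9 to 18.81 and 12.04 to 15.74 for the CD8 T and NK cell markers, and 30.97 to 49.06 and 34.33 to 43.99 for the dendritic cell markers. The most abundant gene of each list, *Cd3g* for Tregs, *Dct* for melanoma, *Lyz2* for macrophages, *Col3a1* for fibroblasts, *Cd79b* for B cells, *Cd8b1* for CD8 T cells and *Zbtb46* for dendritic cells, had log2 fold changes of -0.04, 0.15, -0.20, -1.41, 0.05, -0.08 and -0.06. Among mitochondrially encoded genes, *mt-Co1* was most abundant (log2 fold change 0.11, SE 0.20) and *mt-Co3* was the 1 of 11 without overlap (log2 fold change 0.36, SE 0.12, limma unadjusted p = 0.018). In bulk samples fewer cells of a type and less RNA per cell cannot be told apart, and the part of these cells in the levels of the members was not tested.

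Other noncoding snoRNA hosts were measured for comparison, and 5 of 14 listed had a row. There were 4 with a higher and 1 with a lower mean in *Nr3c1* Foxp3-Cre Tregs, and a median log2 fold change of 0.18, against 0.19 for the 9 members and -0.00145 for all genes. *Snhg15* was at 3.74, 3.77 and 3.77 log2 CPM in control libraries and at 3.89, 4.05 and 4.19 in *Nr3c1* Foxp3-Cre libraries, without overlap (log2 fold change 0.28, SE 0.18, limma unadjusted p = 0.145). *Snhg17* was at 2.66, 2.72 and 2.36 in control and at 2.95, 3.07 and 2.80 in *Nr3c1* Foxp3-Cre libraries, also without overlap (log2 fold change 0.36, SE 0.24, limma unadjusted p = 0.169). Without overlap were thus 2 of the 5 hosts, or 40.0%, against 7.41% of all genes, and this share was not tested. Neither of the 2 passed the test, and no snoRNA host in this list had an unadjusted p under 0.05. *Snhg3* and these 2 hosts thus lay on opposite sides of 0, each with a 95% interval that included 0.

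Other long noncoding RNAs had 11 rows among 25 listed, 8 higher and 3 lower, with a median log2 fold change of 0.16. No gene of this list passed the adjusted test. An unadjusted p under 0.05 was reached by *Peg13*, an imprinted RNA, by *Firre*, a nuclear RNA of the X chromosome, and by *Tug1*, which was named after its values were seen. *Peg13* was at 2.07, 2.78 and 2.37 log2 CPM in control and 3.37, 3.29 and 3.18 in *Nr3c1* Foxp3-Cre libraries (log2 fold change 0.87, SE 0.26, limma unadjusted p = 0.0081). *Firre* was at 0.68, 1.05 and 0.65 in control and 1.34, 1.78 and 1.73 in *Nr3c1* Foxp3-Cre libraries (log2 fold change 0.82, SE 0.35, limma unadjusted p = 0.041). *Tug1* was at 5.89, 5.65 and 5.94 in control and 6.19, 6.38 and 6.20 in *Nr3c1* Foxp3-Cre libraries (log2 fold change 0.43, SE 0.12, limma unadjusted p = 0.0059). The groups did not overlap for these 3 of 11, or 27.3%, against 7.41% of all genes, and this share was not tested. An unadjusted p under 0.05 was found for 3.26% of all genes. The groups of *Malat1*, *Neat1* and *Kcnq1ot1* overlapped. *2900097C17Rik*, the most abundant of the list, had a log2 fold change of 0.02 (SE 0.17).

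**Figure D4:**
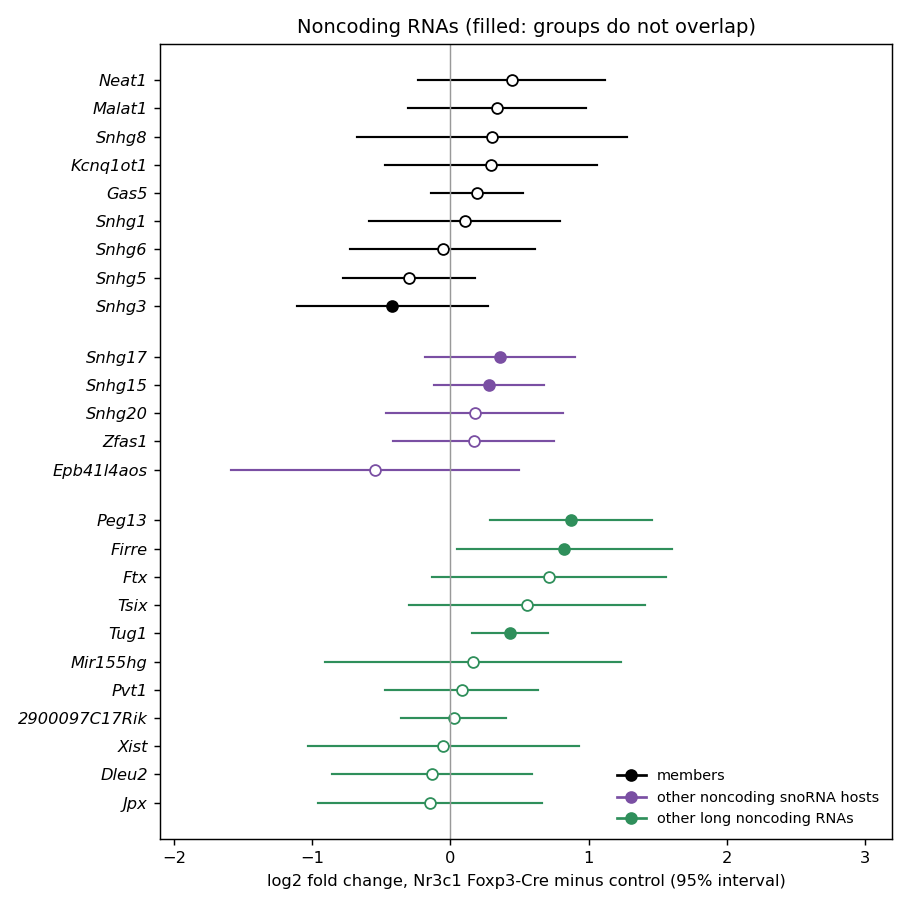
Log2 fold change, *Nr3c1* Foxp3-Cre minus control (horizontal axis), with its 95% limma interval for the 9 members (black), 5 other snoRNA hosts (violet) and 11 other long noncoding RNAs (green), filled where the groups do not overlap. The interval of every member and every other host includes 0, and those of *Peg13*, *Firre* and *Tug1* do not.

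Among all 341 rows annotated as long noncoding RNA, the 9 members included, 189 were higher and 152 lower, with a median log2 fold change of 0.03. Of these, 16 or 4.69% had an unadjusted p under 0.05, against 3.26% of all genes. Groups did not overlap for 42, 24 above and 18 below control, or 12.3%, against 7.41% of all genes. The 1 row with an adjusted p under 0.05 was *Gm42031*, named after its values were seen (log2 fold change 4.66, SE 0.59, limma adjusted p = 0.0458). By mean log2 CPM *Malat1* was the third and *Gas5* rank 13 of the 341, with *Snhg5* at rank 44, *Neat1* at 47 and *Snhg8* lowest of the members at 249.

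Protein partners of these RNAs were measured as mRNA. Of 24 paraspeckle protein genes with a row, 12 were higher and 12 lower, with a median log2 fold change of 0.0044 and none with an unadjusted p under 0.05. *Hnrnpk*, the most abundant of them and an RNA-binding protein gene, had a log2 fold change of 0.05 (SE 0.10). Of 15 nuclear speckle genes, 10 were higher and 5 lower with a median of 0.08, and 1 had an unadjusted p under 0.05. This was *Nktr*, a cyclophilin-related gene, at 5.38, 5.72 and 5.41 log2 CPM in control and 5.75, 5.79 and 5.88 in *Nr3c1* Foxp3-Cre libraries (log2 fold change 0.30, limma unadjusted p = 0.044). *Sf3b1*, a splicing factor gene, was the other without overlap (log2 fold change 0.14, SE 0.10). Of 16 genes around *Malat1* and *Neat1*, 7 were higher and 9 lower, with a median of -0.02 and none with an unadjusted p under 0.05, and *Sipa1*, a GTPase-activating protein gene and the most abundant of them, had a log2 fold change of 0.0024 (SE 0.13).

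Genes that assemble snoRNPs, the particles in which snoRNAs act, numbered 18 with a row, 9 higher and 9 lower, with none under an unadjusted p of 0.05. *Nop56*, a core protein of box C/D particles, had a log2 fold change of 0.21 (SE 0.16). The 32 protein-coding snoRNA hosts had 13 higher and 19 lower with a median of -0.01, and *Rpl7a*, a ribosomal protein gene, was the 1 without overlap (log2 fold change -0.10, SE 0.09). *Hspa8*, a chaperone gene and the most abundant of these hosts, had a log2 fold change of 0.08 (SE 0.17). Of 20 translation genes with TOP starts, 4 were higher and 16 lower with a median of -0.04 and none under an unadjusted p of 0.05. *Eef1a1*, the most abundant of these, had a log2 fold change of 0.0036 (SE 0.12).

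Of 18 nonsense-mediated decay genes, 8 were higher and 10 lower with a median of -0.03. *Eif4a3*, of the exon junction complex, had groups without overlap in the lower direction (log2 fold change -0.08, SE 0.09), and *Rnps1*, the most abundant, had a log2 fold change of -0.06 (SE 0.09). Each list of partner and pathway genes therefore held genes in both directions, most unevenly the TOP translation genes, with 4 higher and 16 lower. None of these genes passed the adjusted threshold.

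Handling of the tissue and neighboring genes were looked at last. Of 12 genes that tissue dissociation can induce, 9 were higher and 3 lower with a median log2 fold change of 0.14, 2 of them, *Nr4a1* and *Ier2*, with an unadjusted p under 0.05 (log2 fold changes 0.45 and 0.22) and groups without overlap, and *Junb*, the most abundant, had a log2 fold change of 0.22 (SE 0.15). Their part in the levels of the members was not tested. *Zbtb37*, which overlaps *Gas5*, had a log2 fold change of 0.50 (SE 0.44) and *Slc3a2*, the amino acid transporter gene beside *Snhg1*, had 0.14 (SE 0.13).

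The genes most like *Gas5*, *Malat1* and *Neat1* were found by the root mean square difference between profiles, each centred on its own mean, over the 6 libraries and 9291 genes with a mean log2 CPM of at least 3. For *Gas5* these were *Fas*, a death receptor gene, at 0.0574, *Pdk1*, a kinase gene, at 0.0633 and *Tmem159* at 0.0640 log2 units. For *Malat1* they were *Zfp407* at 0.129, the antisense *Gm37376* at 0.129 and *Lilr4b*, a leukocyte receptor gene, at 0.130. *Gm37376* can share reads with *Malat1*, so its place here is no separate observation. For *Neat1* the nearest genes were *Gm26740* at 0.0567, *Sdc4*, a syndecan gene, at 0.112 and *Itga7*, an integrin gene, at 0.118. Among the members themselves the closest pair was *Snhg3* and *Snhg5* at 0.153, followed by *Malat1* and *Kcnq1ot1* at 0.181. With 6 libraries and this many genes, near matches of a profile are many, and these values describe likeness only.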

How the data were processed

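RNA-Seq was performed on 3 control and 3 *Nr3c1* Foxp3-Cre libraries of tumor Tregs. SMARTer oligo-dT cDNA and Nextera XT libraries were sequenced as 1 pool with paired ends. Per the study's methods and the submitters' processing notes, reads were trimmed with Cutadapt, aligned with STAR to mm10 and quantified with RSEM on GENCODE M21, genes under 1 CPM were removed and the libraries were quantile normalized. The authors deposited log2 CPM after quantile normalization, and every value column carried a sample. The methods describe a sort on Foxp3-YFP and the labels on CD25, and groups followed the genotype.

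All 12153 genes were fitted with limma 3.58.1 (R 4.3.3), lmFit and eBayes with a trend, genotype only, Benjamini-Hochberg adjustment over all genes at 0.05. The fit was also run on simulated data, with independent noise and planted changes larger than those of the members. That run does not give the power for changes of the members' size. Single means were compared by exact two-sided permutation tests (scipy 1.17.1). Members and lists were chosen with earlier results of these data known. Named were every member, *Nr3c1* and *Tsc22d3*, in each list the genes past the adjusted threshold or else the 2 largest differences without overlap, the most abundant gene of a list, measured neighbors within 5 kb, and the 3 nearest profiles of *Gas5*, *Malat1* and *Neat1*. Some results on genes of the lists are not reported here. Alternatives were eBayes without a trend, robust eBayes, sample quality weights, vooma weights, a minimum mean log2 CPM of 1, log2(CPM + 1), median centering, cyclic loess, the replicate number as a block, leaving out each library and, chosen after seeing the data, melanoma or mitochondrial covariates. Sequences came from RefSeq (GRCm38.p6) promoters and GENCODE M21 transcripts. The pyrimidine, TATA and A-run searches were set after the sequences were seen.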

Additional observations from a re-analysis of the deposited data

How the results depend on the processing

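With 3 libraries a group, a log2 fold change of the members carries a standard error of 0.15 to 0.43, depth is unknown, and 0 of 9 members had an adjusted p under 0.05 under each of the 17 alternatives. Of 152 member fold changes recomputed, 149 kept their sign. Part of this count was fixed in advance. Without a trend, with robust eBayes, vooma weights, the minimum mean or the replicate block, the fitted fold change equals that of the main fit. *Snhg1* turned to -0.15 without *Nr3c1* Foxp3-Cre replicate 3 (-0.15 to 0.33 with a library left out), and *Snhg6* turned to 0.05 without control replicate 1 and to 0.089 without *Nr3c1* Foxp3-Cre replicate 1 (-0.171 to 0.089). *Snhg8* gave no value with a minimum mean log2 CPM of 1. The count of members with an unadjusted p under 0.05 moved from 0 to 1 without a trend (*Snhg3*, limma unadjusted p = 0.0487), to 4 with sample quality weights, which gave control replicate 3 a weight of 7.47 against 0.52 to 0.86 for the others (*Neat1* at 0.81, *Malat1* at 0.83, *Gas5* at 0.36 and *Kcnq1ot1* at 0.76 in log2 fold change), and to 2 without control replicate 2, with 0 to 2 over the libraries left out. The cause was not tested. Over all genes the calls in *Nr3c1* Foxp3-Cre Tregs, 1 higher and 6 lower, became 0 and 0 without a trend, 7 and 12 with sample quality weights, 2 and 6 with vooma weights, 4 and 13 with the melanoma covariate, and 0 and 2 with the mitochondrial covariate, and 0 to 3 higher and 0 to 5 lower with a library left out. Of all genes, 396 had an unadjusted p under 0.05, against 1376 with sample quality weights, 703 without control replicate 2 and 652 with the melanoma covariate.

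With the replicate number as a block (replicate block), 0 genes were called higher and 0 lower, 275 genes had an unadjusted p under 0.05, and 1 member, *Malat1*, did (limma unadjusted p = 0.0438). The deviations of same-numbered libraries correlated at -0.117, -0.329 and -0.025 across genes, so the numbers were not taken to pair the libraries. With the mean instead of the longest transcript length the level in log2 CPM per kb became 6.81 for *Malat1*, 6.16 for *Gas5*, 4.04 for *Snhg5*, 2.94 for *Snhg3*, 2.76 for *Snhg6*, 2.75 for *Snhg1* and 1.03 for *Neat1*. *Snhg1* then stood above *Snhg8*, at 1.62, and *Neat1* overlapped *Snhg8*.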
